A study of Mus musculus with 2 samples.

Results

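The genes described here encode the translation initiation factors (eIFs), the translation elongation factors (eEFs) and the kinases, methyltransferases and binding proteins named after them. They were chosen by name. Every protein-coding gene whose GENCODE symbol begins with Eif or Eef followed by a digit was taken. This gave 67 genes of the 43346 Ensembl genes measured, 55 with Eif symbols and 12 with Eef symbols, and they were sorted into 14 groups by the complex or step they serve. A further gene of that name, Eef1akmt4, was not analysed here. The rule itself uses no measured value.

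RNA was measured in hearts of healthy B6NCrl mouse embryos, a C57BL/6N substrain, at embryonic day 10.5. There was 1 group of 2 biological replicates, 1 library each, made from pooled hearts of 69 embryos (replicate 1) and 51 embryos (replicate 2), both sexes together. Each library started from 10 ng of RNA above 200 nt and carried ERCC spike-ins, which are artificial control RNAs of known amount. No treatment, genotype or second age was measured, so the comparisons are between genes and between the pools. A pooled whole organ does not tell which cells a transcript came from, and fewer cells of a type and less RNA per cell cannot be told apart.

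Initiation begins when eIF2, carrying the initiator methionyl tRNA, joins the small ribosomal subunit together with eIF1, eIF1A, eIF3 and eIF5. The cap-binding protein eIF4E, the scaffold eIF4G and the helicase eIF4A bring that complex to the capped end of the mRNA, and eIF5B joins the large subunit at the start codon. During elongation eEF1A delivers aminoacyl tRNAs, eEF1B reloads eEF1A with GTP, and eEF2 moves the ribosome along. Several of these proteins are encoded by paralogous genes with different expression across tissues, the best known being Eef1a1, which is widespread, and Eef1a2, which takes over in postnatal heart, skeletal muscle and neurons.

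The paralogs matter for the counts because a read from a stretch that both copies share can only be divided between them by estimate. The first 120 coding bases of 4 pairs are printed, 5′ to 3′ on the coding strand, from GENCODE M21 transcripts (GRCm38, which is mm10), with the bases that differ from the partner in capitals. Eef1a1 (chromosome 9, 78478449 to 78489151, minus strand) and Eef1a2 (chromosome 2, 181147653 to 181157014, minus strand) are a pair with a very wide gap in level.
Eef1a1-201: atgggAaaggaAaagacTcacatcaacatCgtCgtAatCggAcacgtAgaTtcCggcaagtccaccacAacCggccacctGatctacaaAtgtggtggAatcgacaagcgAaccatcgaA
Eef1a2-201: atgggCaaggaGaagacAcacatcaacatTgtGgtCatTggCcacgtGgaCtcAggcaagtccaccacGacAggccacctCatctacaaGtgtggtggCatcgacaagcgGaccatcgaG
They differed at 18 of the 120 bases. Over the whole aligned coding sequence they were 79.9% identical, and the longest stretch without a difference was 23 bases. The pair Eif5a (chromosome 11, 69916714 to 69921958, minus strand) and Eif5a2 (chromosome 3, 28781276 to 28798846, plus strand) differed at 30 of these bases and was 72.7% identical from end to end.
Eif5a-210: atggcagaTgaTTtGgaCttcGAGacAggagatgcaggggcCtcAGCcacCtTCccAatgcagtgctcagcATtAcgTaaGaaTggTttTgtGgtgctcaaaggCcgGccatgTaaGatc
Eif5a2-201: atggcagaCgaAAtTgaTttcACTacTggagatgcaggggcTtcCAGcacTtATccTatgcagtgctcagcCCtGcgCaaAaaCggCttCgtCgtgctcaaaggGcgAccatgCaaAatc
The sex-linked pair Eif2s3x (X chromosome, 94188707 to 94212862, minus strand) and Eif2s3y (Y chromosome, 1010543 to 1028847, plus strand) differed at 19 and was 86.3% identical from end to end, with a longest shared stretch of 34 bases.
Eif2s3x-201: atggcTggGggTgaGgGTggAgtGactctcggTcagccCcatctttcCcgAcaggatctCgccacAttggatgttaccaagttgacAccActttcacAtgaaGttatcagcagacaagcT
Eif2s3y-201: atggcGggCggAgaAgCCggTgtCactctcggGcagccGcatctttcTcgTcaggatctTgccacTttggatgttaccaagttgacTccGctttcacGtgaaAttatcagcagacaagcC
Eif1 (chromosome 11, 100319885 to 100322096, plus strand) and Eif1b (chromosome 9, 120492232 to 120495330, plus strand) also differed at 19 and were 81.1% identical from end to end.
Eif1-201: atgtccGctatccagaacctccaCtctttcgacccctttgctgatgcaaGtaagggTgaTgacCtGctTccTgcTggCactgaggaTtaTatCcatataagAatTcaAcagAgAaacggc
Eif1b-201: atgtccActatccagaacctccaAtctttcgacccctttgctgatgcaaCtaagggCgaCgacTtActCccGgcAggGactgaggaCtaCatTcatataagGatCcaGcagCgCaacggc
In these 4 pairs the differences were spread along the sequence. Eif3j1 and Eif3j2 were of another kind: their coding sequences were 99.2% identical with a shared stretch of 781 bases, which leaves the split of their reads uncertain.

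One scaffold gene stands out by its start codon. Of the 67 genes, 66 had a protein-coding transcript in the tables whose annotated coding sequence begins with ATG, and Eif4g2 had none. In its main coding transcript, Eif4g2-213 (chromosome 7, gene span 111067750 to 111083030, minus strand), the first annotated codon, in capitals, is GTG, with its first base at position 111081547. Eif4g2, also called DAP5, is known for starting translation at this codon.
Eif4g2-213: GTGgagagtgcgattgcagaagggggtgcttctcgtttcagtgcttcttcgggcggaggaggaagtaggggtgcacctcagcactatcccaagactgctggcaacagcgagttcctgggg
This transcript stood at 291.6 and 335.4 TPM in replicates 1 and 2.

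The libraries held 45205713 and 41070978 expected counts (estimated reads per gene), of which 43295923 and 39786163 lay on mouse genes and 718411 and 596529 on the factor genes. Spike-ins took 4.22% and 3.13% of counts. All 13 heart muscle marker genes were detected, with a summed level of 24960 and 41838 TPM (a level per transcript length, scaled to a fixed library sum). Markers of other cell types also differed between the pools. Liver primordium markers summed to 1318.4 TPM in replicate 1 and 53.13 TPM in replicate 2, 9 of 9 genes with enough counts were higher in replicate 1, and none of the 10 was at 0 counts in both. Embryonic red cell markers summed to 32662 and 40846 TPM, with 8 of 8 higher in replicate 2 (median log2 ratio 0.36). Endothelial markers had a median of 0.51, with 6 of 7 higher in replicate 2, and epicardial markers one of -0.08. Neuron markers had a median of -0.92 over the 5 genes with enough counts and skeletal myoblast markers one of -1.14 over 2 genes. Across the 13 heart muscle genes the median log2 ratio of replicate 2 over replicate 1 was 0.86, and 4 of them differed by the 2-fold rule given with the library comparison. The part of these differences in the values of the factor genes was not tested.

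The factor genes were among the more abundant coding RNAs of the heart. In both libraries 64 of 67 reached 1 TPM, 58 reached 10 TPM, 28 reached 100 TPM and 3 reached 1000 TPM. Of 21461 nuclear protein-coding genes, 56.9% reached 1 TPM in both libraries, 36.8% reached 10 TPM and 6.57% reached 100 TPM. The median level of the factor genes was 87.73 and 73.41 TPM in replicates 1 and 2, against 18 and 18.64 TPM for the median of all coding genes at 1 TPM or more. By mean TPM, 36 of the 67 were in the top 10% of coding genes. Initiation genes held 1.16 ± 0.0943% of coding TPM (SD, n = 2) and elongation genes 0.521 ± 0.0481%. Their median deposited transcript length was 1973 nt, against 2069 nt for all coding genes and 2488 nt for those at 1 TPM or more in both libraries.

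A few genes accounted for much of this RNA. In the order of replicate 1 and replicate 2, Eef1a1, which encodes the main tRNA-delivering factor, stood at 2687.2 and 2471.1 TPM and ranked 20 among nuclear coding genes. Eif5a, whose product carries the modified amino acid hypusine and helps the ribosome past stalling sequences, stood at 2059.7 and 1707.2 TPM and ranked 33. Eif1, the start-codon fidelity factor, stood at 1236 and 1209.5 TPM and ranked 65. Together with Eif4g2 these genes held 46.3% of the summed factor TPM in replicate 1 and 46.5% in replicate 2. At the other end, 3 genes were under 1 TPM in at least 1 library, namely Eef1a2, the methyltransferase gene Eef1akmt3 and the oocyte-type cap-binding gene Eif4e1b.

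**Figure D1:**
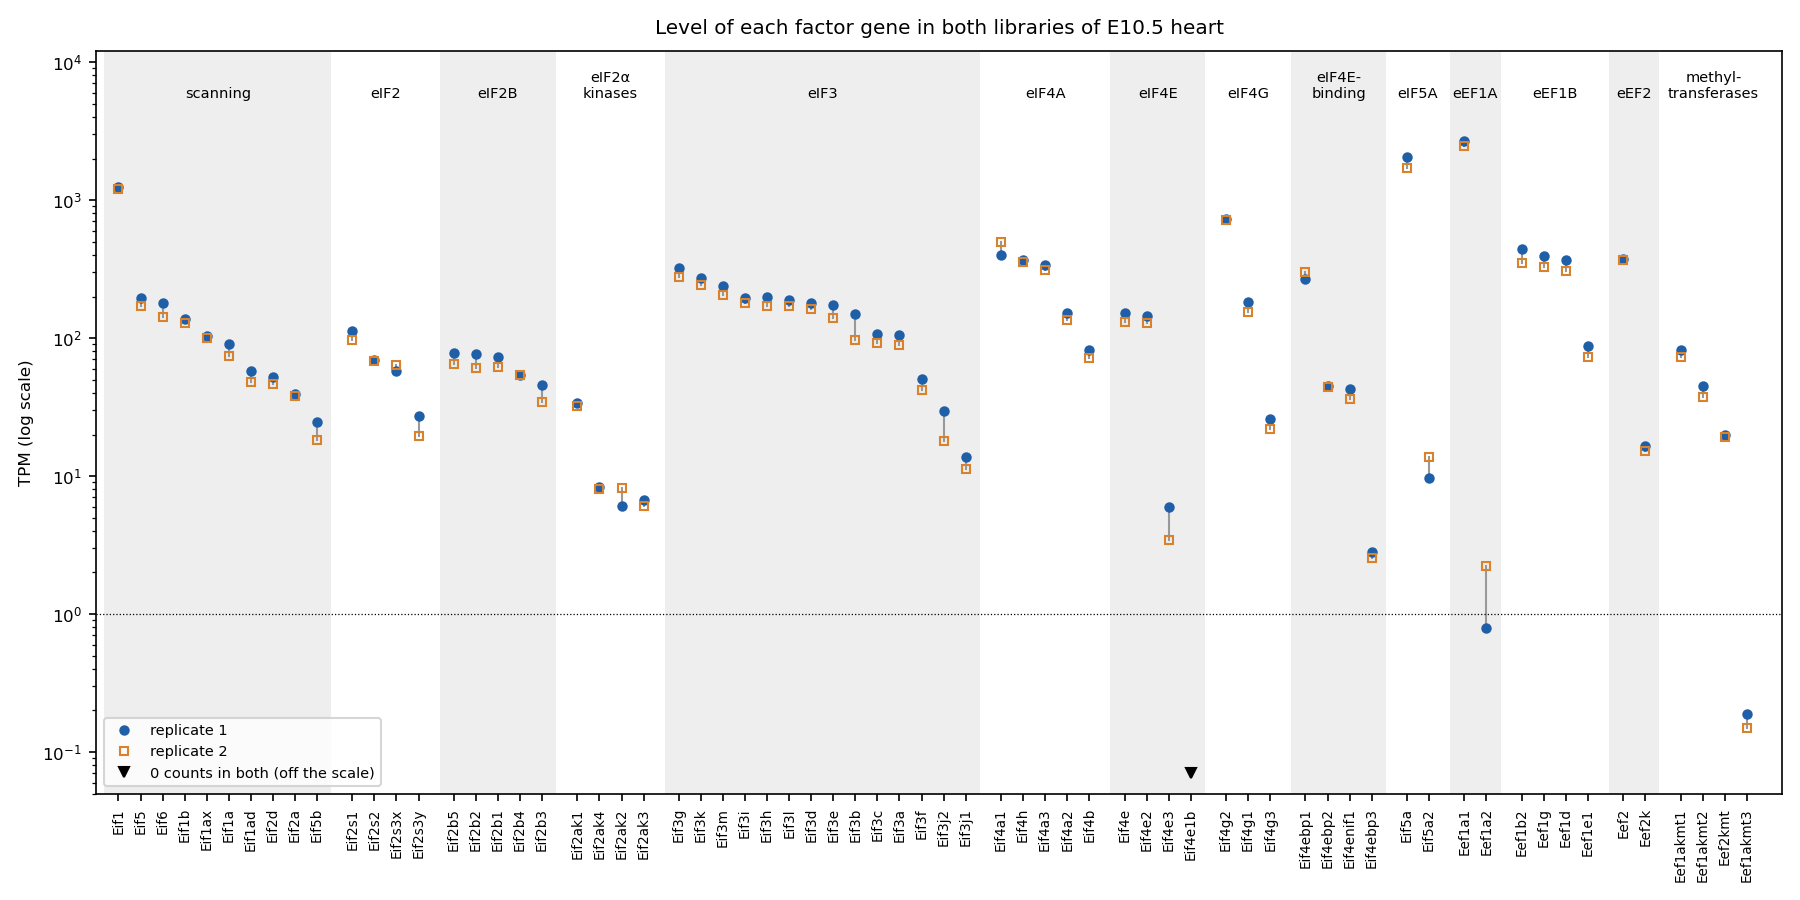
Level of each of the 67 factor genes in TPM (vertical axis, log scale), grouped by complex. Filled circles are replicate 1, open squares replicate 2, grey lines join them, the dotted line is 1 TPM and the triangle marks Eif4e1b, which had 0 counts in both. Eef1a1, Eif5a and Eif1 lie above 1000 TPM, and the largest vertical gap between libraries belongs to Eef1a2.

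Among the factors of scanning and subunit joining all 10 genes were above 1 TPM in both libraries. Eif1 was the highest. Eif5, which encodes the GTPase activator of eIF2, followed at 194.34 and 170.11 TPM, and Eif6, which encodes an anti-association factor of the large subunit, stood at 179.2 and 143.18 TPM. Between these and the lowest lay Eif1ad at 57.54 and 47.86 TPM, Eif2d at 52.32 and 46.5 TPM and Eif2a at 39.51 and 38.3 TPM, the last 2 encoding proteins that can deliver initiator tRNA without eIF2. The lowest was Eif5b, the subunit-joining GTPase, at 24.51 and 18.22 TPM. Its long main transcript of 7797 nt meant that this level still rested on 5133.2 and 3614.3 counts.

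Eif1 exceeded its paralog Eif1b by 9.04-fold in replicate 1 and 9.45-fold in replicate 2. Eif1b itself stood at 136.68 and 128 TPM. Each pair was compared with a limit set by how far coding genes of like level differed between the libraries, and it was called past the spread where both libraries gave the same direction and the mean log2 ratio exceeded the limit. For Eif1 over Eif1b the mean log2 ratio was 3.21 ± 0.04 (SD, n = 2) against a limit of 0.95, so the pair was past the spread. Part of the Eif1 level lay in short forms with no annotated reading frame, and its full-length coding form Eif1-201 alone stood at 484 and 461.9 TPM. Over all forms of each gene the eIF1A genes were close to each other. X-linked Eif1ax stood at 103.17 and 100.68 TPM and autosomal Eif1a at 89.92 and 74.39 TPM, a mean log2 ratio of 0.32 ± 0.17 that lay within its limit of 0.95. More than the coding form entered the Eif1ax level too. A retained-intron form of 416 nt held 56.7% and 59.4% of Eif1ax TPM but 7.56% and 8.37% of its counts. The coding form Eif1ax-201 stood at 44.69 and 40.91 TPM. Both forms of Eif1a are annotated as coding, Eif1a-201 at 63.13 and 58.71 TPM and Eif1a-202 at 26.78 and 15.68 TPM. By TPM of coding forms alone, Eif1a was therefore the higher of the pair in both libraries. By expected counts the order was the other way, with 6896 and 5692 for Eif1ax-201 against 6684 and 5187 for Eif1a.

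The genes of eIF2, the carrier of initiator tRNA, were of moderate level. Eif2s1, encoding the alpha subunit whose phosphorylation restrains initiation, stood at 113.27 and 97.08 TPM. Eif2s2, encoding the beta subunit, stood at 69.88 and 68.59 TPM. The gamma subunit has an X and a Y copy. Eif2s3x stood at 57.84 and 63.81 TPM, and Eif2s3y at 27.15 and 19.62 TPM. The X copy was therefore 2.13-fold and 3.25-fold the Y copy, a mean log2 ratio of 1.40 ± 0.43 (SD, n = 2) past a limit of 1.02. Only male embryos carry the Y copy and both sexes were pooled, so this is not the ratio within male cells. Forms not annotated as coding held 39.5% and 30.1% of Eif2s3y counts.

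The X copy was higher and the Y copy lower in replicate 2, but the log2 ratios of the pair in the libraries, 1.09 and 1.70, lay closer to each other than the limit of 1.02. The log2 ratio of replicate 2 over replicate 1 was 0.24 for Eif2s3x and -0.45 for Eif2s3y, and the deposited TPM intervals of the libraries did not overlap for either gene, as for 54.4% of coding genes. Other sex-linked genes had ratios of -0.41 for Ddx3y, -0.21 for Uty, -0.62 for Kdm5d (all Y-linked) and 0.36 for Xist, the X-inactivation RNA of females. How many embryos of each sex went into each pool was not stated in the labels, and its part in the Eif2s3y value was not tested. Without Eif2s3y the highest eIF2 gene was 1.96-fold and 1.52-fold the lowest, and with it 4.17-fold and 4.95-fold.

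The 5 genes of eIF2B, the exchange factor that reloads eIF2 with GTP and the target of the vanishing white matter mutations, lay close together. The highest, Eif2b5 (catalytic epsilon subunit), stood at 77.68 and 65.17 TPM. Eif2b2 (beta subunit), at 76.69 and 60.97 TPM, and Eif2b1 (alpha subunit), at 72.79 and 61.87 TPM, followed in an order that differed between the libraries, and Eif2b4 (delta subunit) stood at 54.36 and 53.85 TPM. The lowest, Eif2b3 (gamma subunit), stood at 45.57 and 34.43 TPM. The highest gene was 1.7-fold the lowest in replicate 1 and 1.89-fold in replicate 2.

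The kinases that phosphorylate eIF2-alpha were 1 abundant gene and 3 low ones. Eif2ak1, the haem-regulated kinase known for its role in red cells, stood at 34.01 and 32.08 TPM. Eif2ak4, the amino acid sensor GCN2, stood at 8.34 and 8.1 TPM. Eif2ak2, the double-stranded RNA sensor PKR, stood at 6.06 and 8.15 TPM, and Eif2ak3, the endoplasmic reticulum kinase PERK, at 6.68 and 6.09 TPM. The order of the last 3 changed between libraries, and for each of these 3 the deposited intervals of the libraries overlapped. Red cell markers were abundant in both pools (32662 and 40846 TPM in sum), and their part in the level of Eif2ak1 was not tested.

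All 14 genes of eIF3, the largest initiation complex and the platform for the others, were expressed, with a wide range of levels per length. The highest, Eif3g, stood at 323.71 and 278.7 TPM. Eif3k, encoding a peripheral subunit, followed at 270.5 and 241.74 TPM. Eif3a, encoding the large core subunit, stood at 104.86 and 89.71 TPM. The other 8 genes, from Eif3m down to Eif3c, lay between 239.18 and 107.7 TPM in replicate 1 and between 203.58 and 92.69 TPM in replicate 2. Eif3f was lower at 50.76 and 41.73 TPM, and the paralogs Eif3j2 (29.41 and 18.08 TPM) and Eif3j1 (13.64 and 11.31 TPM) were the lowest. Leaving out the j genes, the highest was 6.38-fold the lowest in replicate 1 and 6.68-fold in replicate 2.

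The order of the eIF3 genes was nearly the same in both libraries, since all 14 kept their rank by TPM except Eif3h and Eif3i, which exchanged ranks 4 and 5. The unit mattered more than the library. Eif3a ranked 11 by TPM and 1 by expected counts in both libraries, with 16195 and 12493 counts. Eif3k ranked 2 by TPM and 11 by counts, with 5546 and 4469 counts. TPM is the measure per length, while counts weight each gene by its transcript length.

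**Figure D2:**
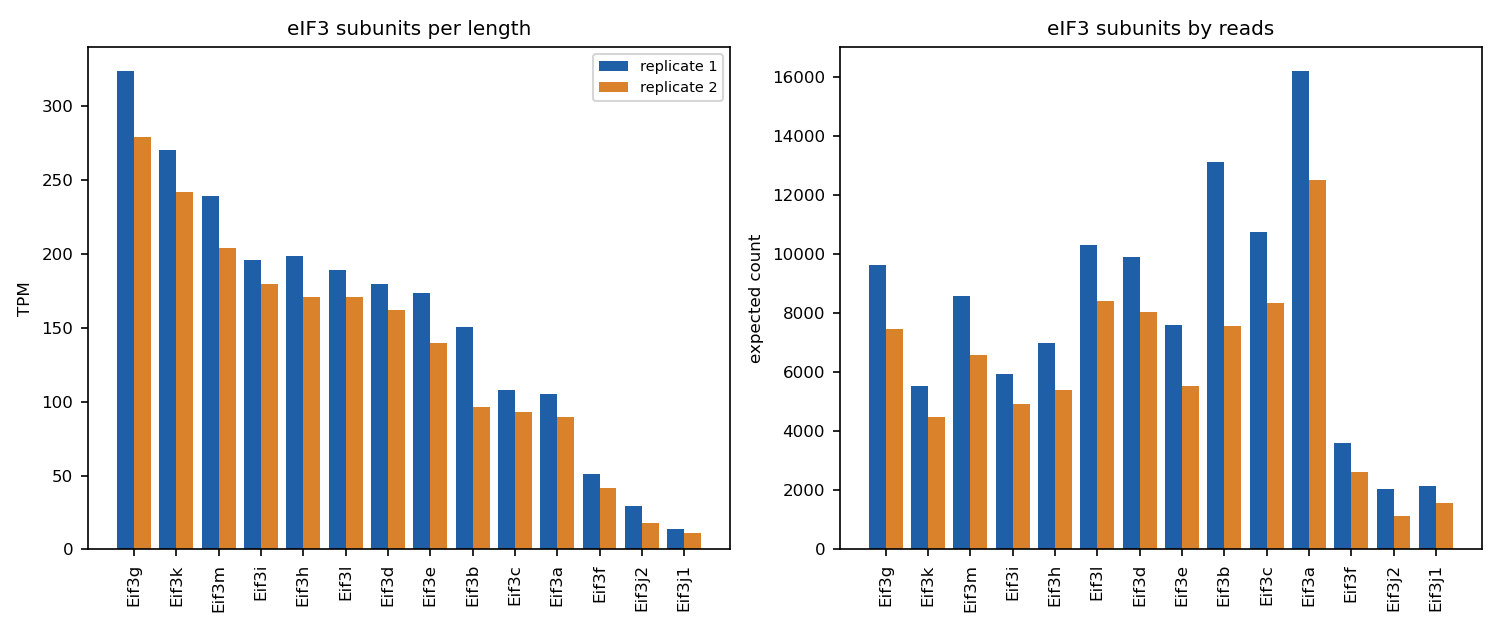
The 14 eIF3 subunit genes in TPM (left) and expected counts (right), ordered by mean TPM, with replicate 1 in blue and replicate 2 in orange. By TPM the bars run from Eif3g at 323.71 and 278.7 down to Eif3j1 at 13.64 and 11.31, while by counts Eif3a is the tallest.

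Eif3j1 and Eif3j2 differed by a mean log2 TPM ratio of -0.89 ± 0.31 (SD, n = 2), within the limit of 1.18. Eif3j2 on chromosome 18 has a deposited transcript length of 2379 nt, and Eif3j1 on chromosome 2 (122028546 to 122056598) one of 5254.2 and 5155.2 nt. From counts alone, without the division by length, the log2 ratio reversed to 0.27. Given their shared sequence, neither level can be assigned with confidence.

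For the helicase step the highest gene was Eif4a1, at 400.26 and 496.05 TPM. Eif4h, encoding a stimulator of the helicase, stood at 365.68 and 354.38 TPM. Eif4b, the other stimulator, was the lowest of the group at 81.4 and 72.11 TPM, so Eif4h was 4.49-fold and 4.91-fold higher, past the limit. Eif4a1 exceeded Eif4a2, at 151.91 and 136.16 TPM, by 2.63-fold and 3.64-fold, also past the limit. Forms not annotated as coding held 57.7% and 54.6% of Eif4a2 TPM, against 5.24% and 4.98% for Eif4a1, so the gap between coding forms was wider. Eif4a3 serves the exon junction complex rather than initiation and stood at 337.47 and 310.28 TPM. Against it Eif4a1 had a mean log2 ratio of 0.46 ± 0.30, within the limit of 0.96. A processed pseudogene, Eif4a-ps4, took 467.2 and 498.5 counts, and how many of these belong to an Eif4a gene was not tested.

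Of the cap-binding proteins, Eif4e (150.95 and 130.38 TPM) and Eif4e2 (144.45 and 129.51 TPM) were alike in level. The latter encodes 4EHP, which binds the cap without recruiting eIF4G. Their mean log2 ratio was 0.04 ± 0.04 (SD, n = 2) with a limit of 0.98. By expected counts the same ratio was 1.09 in favour of Eif4e and past its limit. The deposited lengths were 2882 nt for Eif4e and 1386.2 and 1488.8 nt for Eif4e2. Eif4e3 was much lower at 5.94 and 3.46 TPM, which put Eif4e2 24.3-fold and 37.4-fold above it. Eif4e1b had 0 counts in both libraries, which allows up to 3 counts or 0.113 TPM in replicate 1 and 0.125 TPM in replicate 2. On that floor Eif4e was at least 1337.6-fold higher in replicate 1 and at least 1041.7-fold higher in replicate 2. The deposited TPM intervals of Eif4e1b reached further, up to 0.78185 and 0.86398 TPM, and on those bounds the smallest fold would be lower.

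Of the eIF4G scaffolds the highest was Eif4g2, whose product lacks the eIF4E-binding part and drives cap-independent initiation. It stood at 730.96 and 720.1 TPM, on 72477 and 70240 counts, and ranked 143 among coding genes. The classical scaffold gene Eif4g1 stood at 183.85 and 155.62 TPM. Eif4g2 was thus 3.98-fold and 4.63-fold the level of Eif4g1, a mean log2 ratio of 2.10 ± 0.15 past a limit of 1.03. Eif4g3 was lowest at 26.02 and 21.75 TPM, and Eif4g1 exceeded it by 7.07-fold and 7.15-fold. This pair had nearly the same ratio in both libraries.

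Of the 4E-binding repressors, which sequester eIF4E until mTOR phosphorylates them, Eif4ebp1 led. It stood at 268.43 and 302.7 TPM, against 44.82 and 44.24 TPM for Eif4ebp2. Eif4ebp1 was 5.99-fold and 6.84-fold higher, past the limit. Eif4ebp3 was near the lower end at 2.81 and 2.55 TPM, resting on 55.14 and 45.1 counts, and Eif4ebp1 exceeded it 95.5-fold and 119-fold. Eif4enif1, encoding the transporter of eIF4E into the nucleus, stood at 42.54 and 36.01 TPM.

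In the eIF5A pair Eif5a dominated. Eif5a2, known mainly from testis, brain and tumours, stood at 9.68 and 13.79 TPM, on 1451 and 1864 counts. Eif5a exceeded it 213-fold and 124-fold, a mean log2 ratio of 7.34 ± 0.55 (SD, n = 2) past a limit of 1.21. The log2 ratio of TMM-scaled counts, replicate 2 over replicate 1, was -0.17 for Eif5a and 0.61 for Eif5a2, and with spike-in scaling both were above 0.

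The eEF1A pair had one of the widest gaps of the 16 pairs compared. That of Eif4e over Eif4e1b is known only as a lower bound, so which of them was wider cannot be told. Eef1a1 rested on 114136.7 and 97233 counts. Eef1a2 had 48 counts in replicate 1 and 122 in replicate 2, or 0.79 and 2.24 TPM. Eef1a1 was therefore 3401.5-fold higher than Eef1a2 in replicate 1 and 1103.2-fold higher in replicate 2, a mean log2 ratio of 10.92 ± 1.15 (SD, n = 2) past a limit of 2.18. Nearly all eEF1A RNA of both pools thus came from Eef1a1. The level of Eef1a1 was similar in the pools, and that of Eef1a2 was not.

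**Figure D3:**
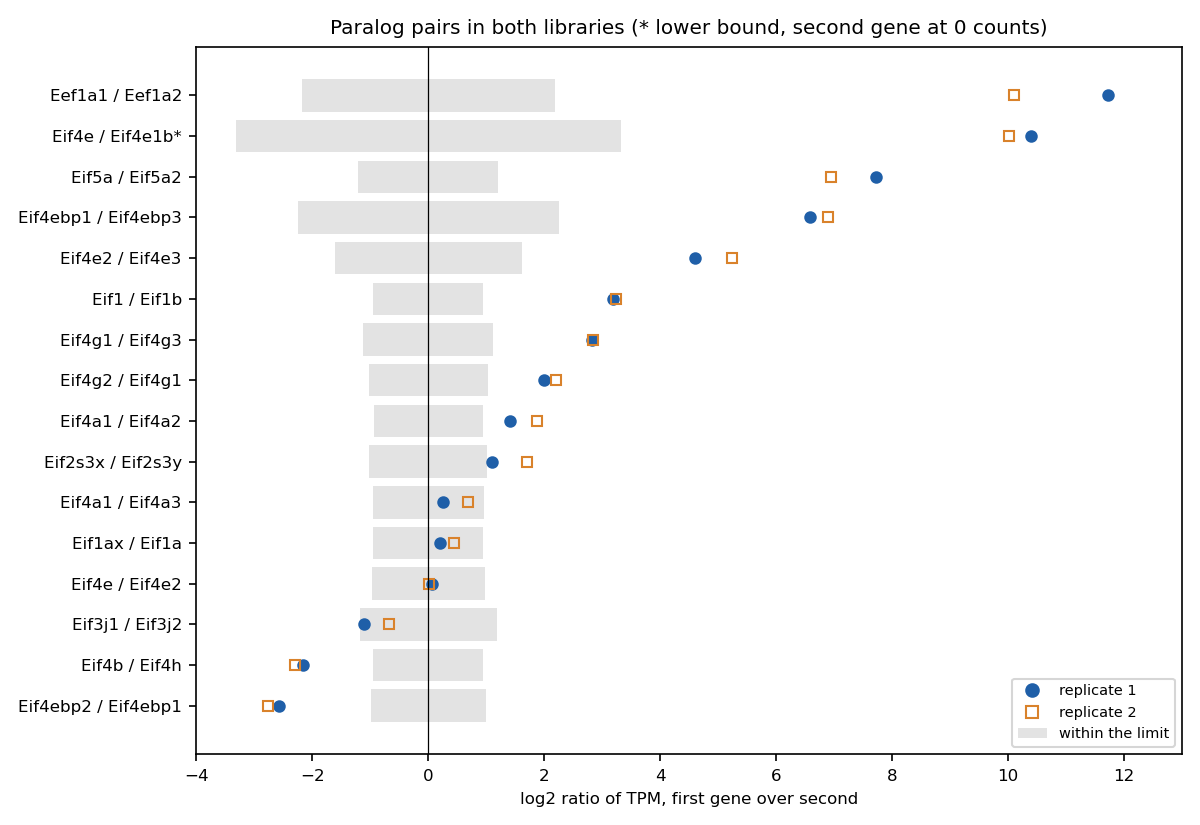
Log2 ratio of TPM, first gene over second, for the 16 paralog pairs in replicate 1 (filled circles) and replicate 2 (open squares). Grey bars are the limit set by the spread between libraries of coding genes of like level, and the starred pair is a lower bound because Eif4e1b had 0 counts. In 12 pairs the mean lies past the limit, and in 4 pairs (Eif4a1 and Eif4a3, Eif1ax and Eif1a, Eif4e and Eif4e2, Eif3j1 and Eif3j2) within it.

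The exchange factor of eEF1A had subunits of nearly equal level over all forms of each gene. Eef1b2 (beta, catalytic) stood at 442.55 and 347.99 TPM. Eef1g (gamma) stood at 393.88 and 327.98 TPM. Eef1d (delta, catalytic) stood at 367.19 and 305.87 TPM. The highest of these 3 was only 1.21-fold the lowest in replicate 1 and 1.14-fold in replicate 2, the narrowest range of the complexes examined, namely eIF2, eIF2B, eIF3 and eEF1B. Forms not annotated as coding held 47.9% and 45.6% of Eef1b2 TPM, against 4.74% and 4.91% for Eef1g and 2.33% and 3.72% for Eef1d, so the coding forms were less even. Eef1e1, whose product belongs to the aminoacyl tRNA synthetase complex, was lower at 87.73 and 72.53 TPM.

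Eef2, the translocase, stood at 374.85 and 369.88 TPM, near the eEF1B subunits. Its inhibitory kinase Eef2k stood at 16.59 and 15.17 TPM. Of the methyltransferases of elongation factors, Eef1akmt1 was highest at 81.76 and 73.41 TPM, followed by Eef1akmt2 at 45.07 and 37.34 TPM. Fgfr2 overlaps Eef1akmt2 on the same strand and had 3316.8 and 1326.8 counts, and how reads were divided between them was not tested. Eef2kmt stood at 19.78 and 19.1 TPM. Eef1akmt3 was at the limit of measurement, with 15 and 11 counts.

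The pools were then compared gene by gene as the log2 ratio of scaled counts, replicate 2 over replicate 1. To be counted as differing, a gene needed a mean count of at least 50, a ratio of at least 2-fold and deposited TPM intervals that did not overlap. With 1 library a side there is no test of a condition. Of the 65 factor genes with enough counts, 1 was counted as differing in the direction of replicate 2, where the background was 288 of 12991 protein-coding genes (2.22%). In the direction of replicate 1 the count was 0 of 65, where the background was 640 genes (4.93%). The share of factor genes differing towards replicate 2 was thus close to the background.

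The differing gene was Eef1a2. Its 122 counts in replicate 2 against 48 in replicate 1 gave a 3.02-fold difference after scaling, with a 95% exact binomial interval of 2.15 to 4.31 that covers counting error only. Its log2 ratio was 1.58 and lay between 1.49 and 1.90 with DESeq2, spike-in and TPM scaling. Heart muscle markers were also higher in replicate 2 (median log2 ratio 0.86, 13 of 13 genes) while neuron markers had a median of -0.92, with summed levels of 27.81 and 17 TPM, and skeletal myoblast markers summed to 5.65 and 2.14 TPM. The part of cell makeup in the Eef1a2 value was not tested.

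**Figure D4:**
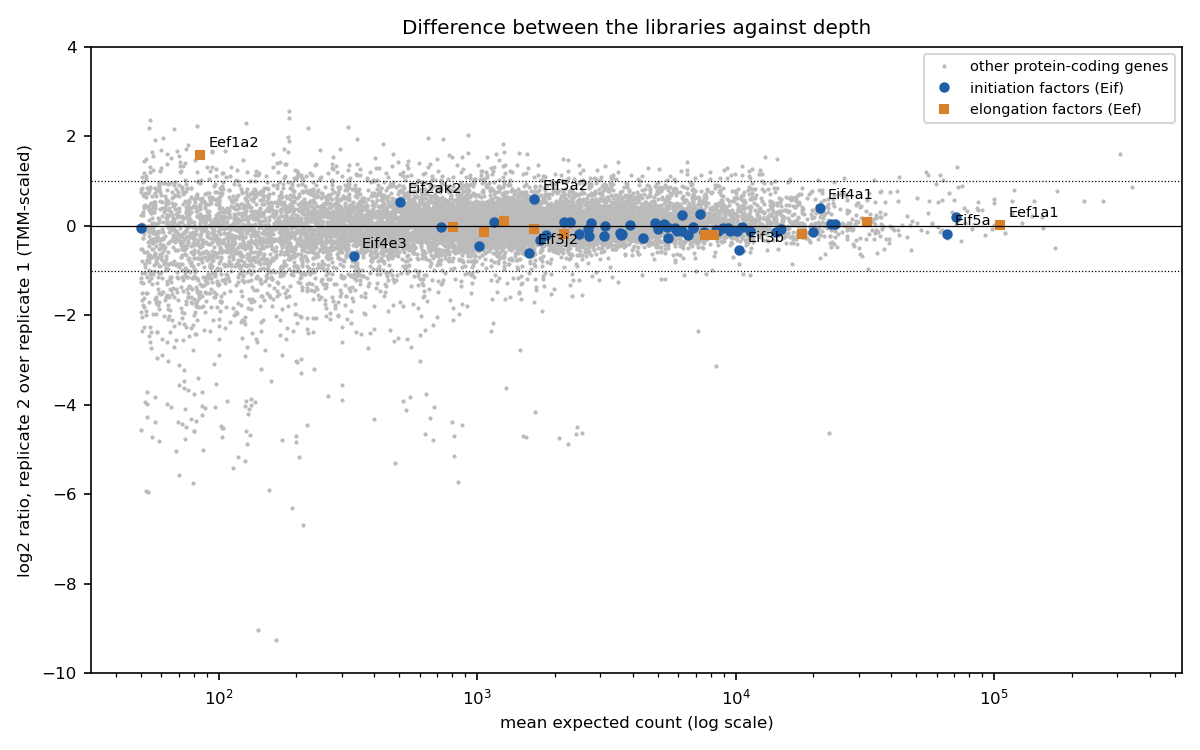
Log2 ratio of TMM-scaled counts, replicate 2 over replicate 1, against mean expected count (log scale) for 65 factor genes (blue circles Eif, orange squares Eef) and the other protein-coding genes with a mean count of 50 or more (grey). Dotted lines mark 2-fold. Only Eef1a2 among the factor genes lies beyond 2-fold, and most of the others lie close to 0.

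Other ratios were smaller. At 1.5-fold or more, 4 factor genes (6.15%) were apart, against 18.5% of coding genes. Besides Eef1a2 these were Eif5a2, at 1.53-fold higher in replicate 2, and 2 genes higher in replicate 1. The latter were Eif4e3 at 1.6-fold (436.5 and 229.26 counts) and Eif3j2 at 1.52-fold. Just under this size were Eif3b, encoding a core eIF3 subunit, at 1.46-fold higher in replicate 1 (13107 and 7561 counts), and Eif2ak2 at 1.45-fold higher in replicate 2. Gm20696 overlaps Eif4e3 on the same strand and had 127.84 and 90.56 counts, and how reads were divided between them was not tested. The sign of these 6 ratios was the same with spike-in scaling.

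Among genes with a mean count of 2173 or more, the first quartile of the factor genes, the factor genes varied less between the pools than coding genes. Depth above that minimum was not matched. The log2 ratios had an SD of 0.16 over 49 factor genes and 0.38 over 4510 coding genes. The gap was smaller by the median absolute log2 ratio, which extreme genes move less, at 0.12 and 0.18. The minimum left out Eef1a2, Eif5a2, Eif4e3, Eif3j2 and Eif2ak2, whose ratios were among the largest. Without it, over all genes with a mean count of 50 or more, the SDs were 0.30 for factor genes and 0.66 for coding genes. This is a description across genes, which are not replicates. Among all genes with a mean count of 50 or more, the deposited intervals were often apart, for 48 of 65 factor genes (73.8%) and 54.4% of coding genes. These 2 shares were not matched for depth. The intervals are on deposited TPM, by which the median coding gene lay at -0.09, so a gene with a TMM-scaled ratio near 0 can have intervals apart.

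Although small, the ratios leaned one way. The median over the 65 genes was -0.07, with 45 higher in replicate 1 and 20 in replicate 2, while 51.8% of coding genes were higher in replicate 2. The sign depended on scaling. By spike-in counts the median was 0.26 with 61 genes higher in replicate 2, and by deposited TPM it was -0.17 with 59 higher in replicate 1. Spike-in scaling moved the median coding gene as well, from 0.01 to 0.34. Relative to the median coding gene the factor genes were at -0.08 with TMM scaling, with 46 of 65 below it. DESeq2 and spike-in scaling gave the same values because each shifts all genes by nearly the same amount, so they add no check. By deposited TPM, which could differ, the factor genes were at -0.09, with 47 below the median coding gene.

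The lean was carried most evenly by eIF3. All 14 subunit genes had a ratio below 0 with TMM scaling (median -0.12), and 12 of 14 were above 0 with spike-in scaling (median 0.20). With TMM scaling and by deposited TPM alike, all 14 lay below the median coding gene, by a median of -0.14. DESeq2 and spike-in scaling cannot change this position. The 4 genes of eEF1B and its associate were all below 0 by TMM (median -0.19) and all above 0 by spike-ins (median 0.13). All 4 lay below the median coding gene, by a median of -0.21 with TMM scaling and -0.18 by deposited TPM. Of the eIF2B genes 4 of 5 lay below the median coding gene with TMM scaling and by deposited TPM. Among the eIF2-alpha kinases 3 of 4 lay above it. Liver markers differed between the pools far more (median log2 ratio -4.64), and their part in these values was not tested.

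Other genes of the translation machinery were taken from 6 lists set by role. All 51 were above 1 TPM in both libraries and none of them met the 2-fold rule, which 2.22% of coding genes met towards replicate 2 and 4.93% towards replicate 1, with 27 higher in replicate 2 and 24 in replicate 1 by TMM (median 0.02). By mean TPM the highest termination or recycling gene was Denr, a ribosome recycling factor, at 117.01 and 88.08 TPM, although Abce1, at 94.86 and 90.06 TPM, was above it in replicate 2. Of the poly(A)-binding list the highest was Pabpc1, encoding the poly(A)-binding protein that contacts eIF4G, at 277.92 and 232.52 TPM. Dohh, encoding the second enzyme of hypusine synthesis on eIF5A, stood at 91.46 and 87.87 TPM, and Rheb, encoding the GTPase that activates mTOR complex 1, at 180.96 and 189.06 TPM. Of the selenocysteine and GTPase list the highest was Gtpbp1, at 29.13 and 31.12 TPM. Of the mitochondrial translation factors 8 of 9 were higher in replicate 2 by TMM (median 0.15). Their highest gene was Tufm, the mitochondrial counterpart of eEF1A, at 161.44 and 170.77 TPM.

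The transcript tables held 340 transcripts of these genes. In 41 genes with more than 1 transcript and a value above 0, the leading transcript by TPM was the same in both libraries in 38 and different in 3 (Eif2a, Eif4g3 and Eif5). The share of gene TPM held by the main transcript changed by a median of 1.82 percentage points and by 5 points or more in 8 genes. The largest changes, from replicate 1 to replicate 2, were in Eef2k-204 (45.91% to 58.64%), Eif5b-201 (67.31% to 76.75%), Eif1a-201 (70.21% to 78.92%), Eif2b5-201 (84.25% to 92.49%) and Eif4g1-202 (43.05% to 35.73%). By counts the shares went from 51.13% to 58.83% for Eef2k-204, 75.25% to 81.71% for Eif5b-201 and 79.87% to 86.31% for Eif1a-201. They went from 95.81% to 98.14% for Eif2b5-201 and from 56.32% to 46.68% for Eif4g1-202. The shares of Eef2k-204 rested on 681.6 and 717.7 estimated reads of the transcript.

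Transcripts annotated as protein coding held 84.1% and 84.6% of factor TPM and 94.8% and 95.2% of counts. Processed transcripts, which have no annotated reading frame, held 11.3% and 11.2% of TPM but 2.48% and 2.36% of counts, since they are short and TPM divides by length. In Eif1 the short forms Eif1-202 (383 nt) and Eif1-203 (447 nt) took 43.53% and 16.2% of TPM in replicate 1, and coding Eif1-201 (1322 nt) took 39.16% of TPM but 71.96% of counts. In Eef1a1 the coding form Eef1a1-201 held 76.21% and 79.37% of TPM and 92.51% and 93.77% of counts. In Eef1d the leading forms Eef1d-207 (42.42% and 43.46% of TPM) and Eef1d-201 (29.74% and 26.32%) were both coding. In Eif4g2 the coding forms Eif4g2-213 (39.9% and 46.57% of TPM) and Eif4g2-206 (32.9% and 32.24%) led.

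In a few genes forms without a full reading frame also held many reads. In Eif4a2 such forms held 57.7% and 54.6% of TPM and 40.5% and 37.2% of counts, and its retained-intron forms alone held 14.7% and 15.5% of counts. In Eif2a they held 51.3% and 51.6% of counts, mostly in the nonsense-mediated decay form Eif2a-207. In Eef1b2 they held 43.6% and 40.5% of counts, with Eef1b2-205, also annotated for nonsense-mediated decay, at 33.64% and 31.21%. These 3 genes are among the 22 factor genes that overlap another gene. Each is overlapped on the opposite strand, Eif4a2 by Rfc4, Eif2a by Serp1 and Eef1b2 by Ndufs1. Whether the counting used strand was not stated in the labels, so reads of the partners may be mixed.

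**Figure D5:**
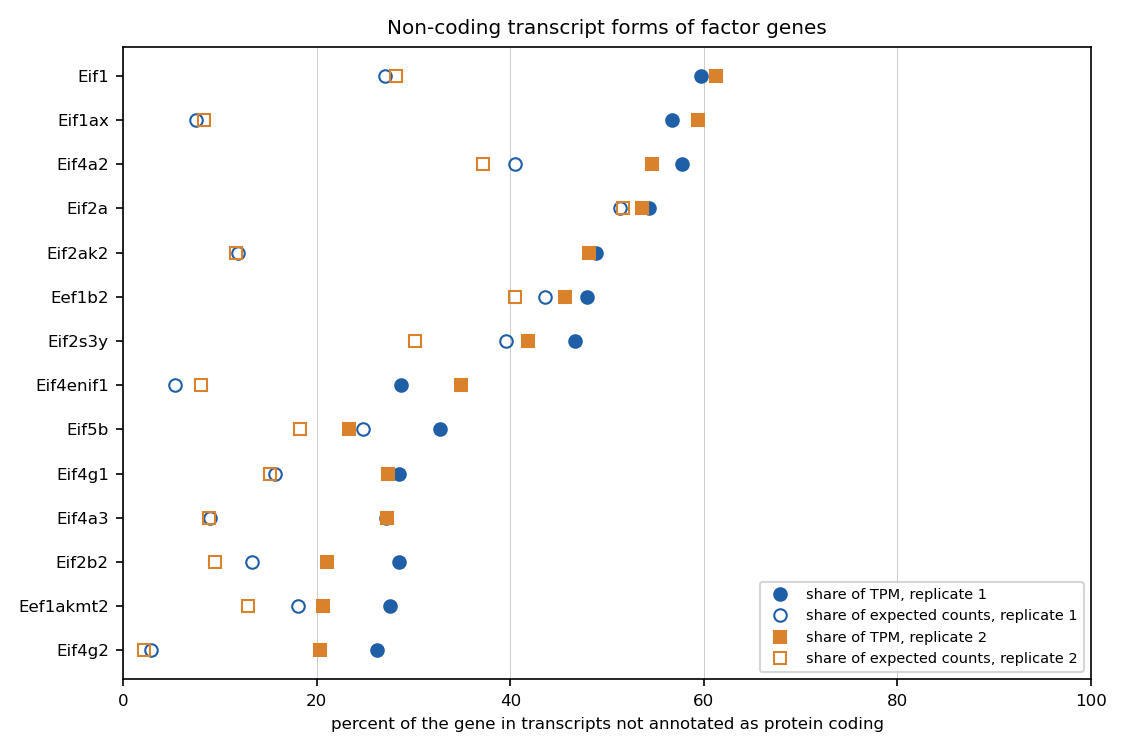
Percent of each gene held by transcripts not annotated as protein coding (retained intron, nonsense-mediated decay or processed transcript), for the 14 factor genes with the highest share by TPM. Filled symbols are shares of TPM, open symbols shares of expected counts, blue circles replicate 1 and orange squares replicate 2. Eif1 and Eif1ax fall from 59.7% and 56.7% of TPM to 27% and 7.56% of counts in replicate 1, while Eif2a stays at 54.3% and 51.3%.

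Factor genes also host small RNAs. Within their spans and on the same strand lay 24 annotated small RNA genes in 16 hosts, 17 of them snoRNAs, 5 miRNAs and 2 snRNAs. Only 6 had 1 count or more in both libraries and 15 were at 0 in both. The highest by counts was Snora28, inside Eif5 (chromosome 12, 111540941 to 111541067), with 26 counts in replicate 1 and 7 in replicate 2. RNAs of 200 nt or less were left out of these libraries, so these counts do not measure the levels of mature small RNAs.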

How the data were processed

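Each of 2 libraries has a gene table and a transcript table. The authors deposited expected counts (reads estimated per gene or transcript and not normalized), with posterior mean counts. TPM and FPKM values, transcript lengths and the bounds of a TPM credibility interval, treated as a score, were also deposited by the authors. Transcript tables carry, as deposited, each transcript's percent of its gene. Reads were placed on mm10 with GENCODE M4, per the labels and a deposited note. The quantifying program and the use of strand: not given in the sources used here.

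Gene names, types and positions came from GENCODE M21 (42462 of 43346 genes matched). Library ratios are log2 of expected counts, rounded for size factors, scaled by TMM (edgeR 4.0.16, R 4.3.3), as replicate 2 over replicate 1 after adding a prior of 0.5 counts. There being 1 group, no p-values were calculated. The pair limit is the 95th percentile of absolute log2 TPM ratios between libraries among the 500 coding genes nearest in mean TPM to each gene, combined as a root of summed squares. Coding sequences were aligned globally (Biopython 1.88). A count of 0 allows up to 3 counts. This floor and the binomial intervals cover counting error alone, and no molecular identifiers are named in the labels. Columns of samples not in the series numbered 0.

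The symbol rule uses no measured value, but it and the complexes, pairs and lists were chosen with earlier results of these data known. Named genes were the 2 highest and the lowest of each group, both genes of each pair, genes differing or under 1 TPM, the 3 largest ratios in each direction, the highest gene of each list, and for transcripts the 5 largest changes plus Eef1d, Eif4g2, Eif4a2 and Eef1a1. Others were chosen after their values were seen. Alternatives were DESeq2 1.42.0 size factors, spike-in scaling, deposited TPM, FPKM at 1, posterior means, other thresholds and each library alone. The ratio procedure was tried on simulated counts, with Poisson intervals on the counts in place of the deposited TPM intervals. The condition on deposited intervals was therefore not tested. Python 3.11.15, numpy 2.4.6, pandas 2.3.3, scipy 1.17.1 and matplotlib 3.10.9 were used.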

Additional observations from a re-analysis of the deposited data

How the results depend on the processing

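Scaling decided the sign of the library ratio. With spike-in scaling the median over factor genes reversed from -0.07 to 0.26. So did the medians of the scanning factors (0.26), eIF2 (0.30), eIF2B (0.17), eIF3 (0.20), eIF4A (0.30), eIF4E (0.21), eIF4G (0.18), eEF1B (0.13) and the methyltransferases (0.27). By deposited TPM the medians of the eIF2-alpha kinases (-0.06), the 4E-binding group (-0.08) and eEF2 with its kinase (-0.07) reversed. At 1.5-fold instead of 2-fold, 2 genes were counted as differing towards each replicate. The share of coding genes meeting that rule in each direction is not given here. Without the interval condition, 18.5% of coding genes were 1.5-fold or more apart in either direction. With counts not divided by length, Eif3j1 over Eif3j2 reversed to 0.27, the highest over lowest subunit moved to 10.2 for eIF2, 2.06 without Eif2s3y, 3.39 for eIF2B, 9.49 for eIF3, 4.64 without the j genes and 2.37 for eEF1B, and the elongation share moved to 0.45%. Eif4e over Eif4e2 came to 1.09 and passed its limit. The other 44 values of counts, shares, medians and subunit ranges under these alternatives kept their direction and side of the limit, as did 101 values for single pairs and groups, while 7 further group medians moved with no change of sign. Each library alone moved none of the pair counts, shares or subunit ranges beyond these limits. No paired analysis was possible because there is 1 group. With 2 libraries the precision is set by the number of pools, and for Eef1a2, Eef1akmt3 and Eif4ebp3 by their low counts.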
